A study of Mus musculus with 11 samples.

Results

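The MSX and BMP signaling genes described here are 10 of the 38561 genes in the count files. They were listed by name, with earlier results of these data known, and matched to the Ensembl identifiers of the files without a threshold on any measured value. They are the MSX homeobox genes *Msx1* and *Msx2*, the BMP ligand genes *Bmp2*, *Bmp4*, *Bmp5* and *Bmp7*, and the BMP response genes *Id1*, *Id2*, *Id3* and *Smad6*. All 10 passed the filter on low counts and were among the 17317 genes tested.

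RNA was sequenced from facial process explants (mandibular and maxillary branchial arch with the nasal processes) of mouse embryos of mixed strain at embryonic day 10.5. The 11 libraries carry 4 genotype labels, with 2 wild-type (wt) libraries and 3 each of Rspo2KO, Wnt9bKO and the double knockout, DKO. RSPO2 is a secreted protein that potentiates WNT/β-catenin signaling, WNT9b is a WNT ligand of the facial ectoderm, and the study asked how far the 2 genes act together in the facial processes. By the study's methods the *Rspo2* null allele carries an inserted *LacZ* and neomycin-resistance cassette, a derived line lacks it, and the line sequenced is not stated. No deletion limited to a cell type is described. The labels do not say whether libraries came from separate embryos or pools, so every p-value below measures only the spread between these libraries, which may be technical.

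BMP ligands bind paired type I and type II serine/threonine kinase receptors, which phosphorylate receptor SMADs that enter the nucleus with SMAD4. The ID genes, which encode inhibitors of basic helix-loop-helix transcription factors, and *Smad6*, which encodes an inhibitory SMAD, are among the best known direct targets. MSX1 and MSX2 are homeodomain repressors of the facial mesenchyme, where *Msx1* and *Msx2* are targets of BMP and also of WNT/β-catenin signaling, and where MSX1 is required for palate and tooth development.

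Levels are given in CPM, a gene's counts scaled to a common library total after TMM scaling. Total counts ranged from 11136166 to 18017344. Raw counts of the members ran from 589 to 2556 for *Msx1*, from 98 to 283 for *Msx2* and from 16 to 65 for *Bmp2*, the thinnest of the 10. The wt libraries held 14.8 and 16.0 CPM of *Rspo2*, against 4.74 to 6.59 CPM in Rspo2KO. It was 22.8, 2.86 and 18.1 CPM in the libraries labelled Wnt9bKO 1, 2 and 3, and 4.17, 3.67 and 15.5 CPM in those labelled DKO 1, 2 and 3. The library labelled Wnt9bKO 2 thus had a low *Rspo2* level and the library labelled DKO 3 a wt level, against their labels. For *Wnt9b* the wt values were 10.8 and 13.4 CPM, while Wnt9bKO had 16.2 to 23.3 and DKO 18.3 to 20.2 CPM, so its counts give no check of the label. All libraries were kept under their labels, and results that rest on these 2 libraries are also given without them. The 2 libraries were picked by their measured *Rspo2* level. For a gene that follows *Rspo2*, a p-value from a fit without them is therefore not an independent test. The sum over small nuclear RNA genes was 352 to 420 CPM in wt and Rspo2KO but 70.1 to 82.7 CPM in Wnt9bKO and DKO, and this difference between libraries cannot be told apart from the Wnt9b genotype.

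In wt, ordered by mean CPM per kilobase of exon, *Id3* stood highest at 92.6, followed by *Id1* at 50.8, *Msx1* at 42.4 and *Id2* at 28.7. Next came *Bmp7* at 8.29, *Smad6* at 7.02, *Bmp4* at 6.36, *Msx2* at 3.38, *Bmp5* at 1.65 and *Bmp2* at 0.447. The 2 wt libraries of *Id1* (60.2 and 41.4) spanned both values of *Msx1* (44.4 and 40.4), and those of *Bmp4* (6.99 and 5.72) overlapped those of *Smad6* (6.91 and 7.12), so these neighbours were not separated. *Msx1* was thus the more abundant MSX transcript per length, and *Bmp7* the most abundant of the 4 ligands in both wt libraries.

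The member genes lie on 7 chromosomes. *Msx1* (ENSMUSG00000048450) spans chr5:37820485-37824583 on the minus strand of GRCm38 and *Msx2* (ENSMUSG00000021469) spans chr13:53466884-53473074, also on the minus strand. *Id3* (ENSMUSG00000007872) lies at chr4:136143497-136145755 on the plus strand. Exons of *Bmp4* and *Bmp5* overlap 1 annotated gene each on the opposite strand, which had 1 to 8 and 2 to 12 counts in a library. Whether reads were counted by strand is not stated in the sources used here.

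Promoter windows of 300 bases, from 250 before to 50 after the RefSeq start site (GRCm38.p6), were given for 7 of the 10 members: *Msx1*, *Msx2*, *Bmp4*, *Bmp5*, *Id2*, *Id3* and *Smad6*. They were searched on both strands for 4 kinds of short motif, with overlapping matches counted. The TCF/LEF core, bound by the nuclear partners of β-catenin and written as CTTTG followed by AA, AT, TA or TT, was in 16.9% of all 32851 windows and in none of the 7. The GC-rich SMAD motif GGCGCC was in 11.9% of all windows and occurred 1 time in *Id2*. The palindromic SMAD motif GTCTAGAC was in 0.213% of all windows, 70 in number, and occurred 1 time in *Smad6*. The general promoter element CCAAT was in 37.4% of all windows, 2 times in *Msx1*, 3 times in *Id2* and 1 time each in *Msx2* and *Smad6*. A match is a description of these letters, and no match says only that the letters are absent from this window.

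The *Msx1* sequence is shown because this gene varied most of the 10 among the libraries, and the *Smad6* and *Id2* sequences because they hold the SMAD motifs of response genes. They are printed from the RefSeq windows on the gene's strand, with CCAAT (or its reverse complement), GTCTAGAC and GGCGCC in capitals. The *Msx1* stretch is chr5:37824586-37824835 (minus strand), with matches that begin 91 and 54 bases before the start site. The *Smad6* stretch is chr9:64022045-64022074 (minus strand), and its match spans the start site. The *Id2* stretch is chr12:25096306-25096335 (minus strand), with a match that begins 231 bases before that start site.
Msx1: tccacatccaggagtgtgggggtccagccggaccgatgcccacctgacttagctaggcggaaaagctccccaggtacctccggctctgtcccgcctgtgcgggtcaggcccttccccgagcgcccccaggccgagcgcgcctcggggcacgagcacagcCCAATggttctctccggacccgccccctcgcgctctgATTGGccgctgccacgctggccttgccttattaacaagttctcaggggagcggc
Smad6: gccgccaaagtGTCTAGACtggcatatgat
Id2: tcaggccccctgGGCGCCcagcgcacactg

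**Figure D1:**
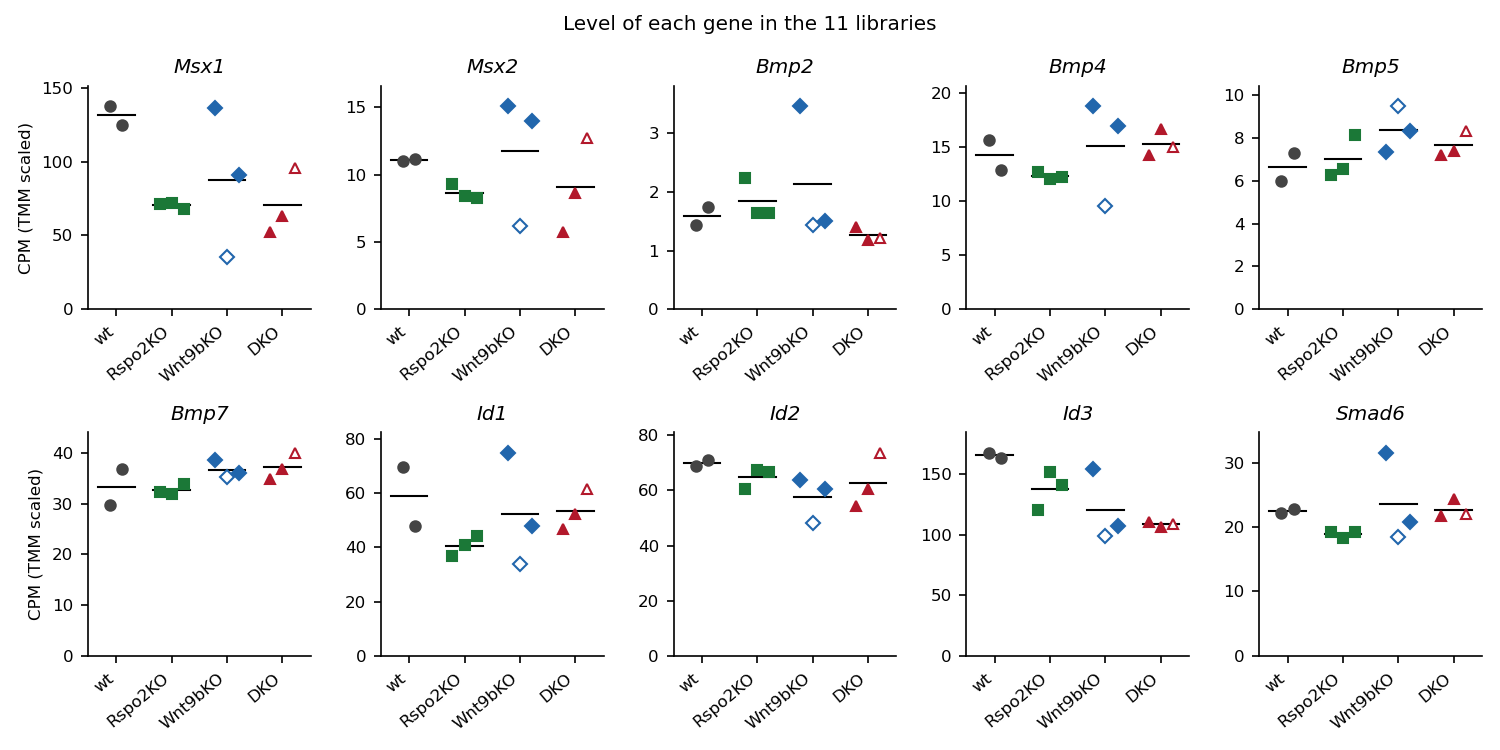
CPM of the 10 genes in each library by genotype label, with a horizontal line at the label's mean and open symbols for the libraries labelled Wnt9bKO 2 and DKO 3. *Msx1* lies at 67.7 to 72.1 CPM in all 3 Rspo2KO libraries against 125 and 137 in wt, while its Wnt9bKO libraries spread from 35.1 to 136.

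*Msx1* stood lower in the Rspo2KO libraries than in wt and varied widely in the Wnt9bKO and DKO libraries. It was 137 and 125 CPM in wt 1 and 2, 71.4, 72.1 and 67.7 CPM in Rspo2KO 1 to 3, 136, 35.1 and 90.6 CPM in the libraries labelled Wnt9bKO 1 to 3, and 52.1, 63.4 and 95.4 CPM in those labelled DKO 1 to 3. The Rspo2KO and DKO libraries lay below both wt libraries without overlap, and of the libraries labelled Wnt9bKO only number 1 reached the wt range. The share of all genes that did so is given below for Rspo2KO and was not counted for DKO. Means were 131 ± 8.76 CPM in wt (SD, n = 2), 70.4 ± 2.39 in Rspo2KO, 87.3 ± 50.6 in Wnt9bKO and 70.3 ± 22.4 in DKO (SD, n = 3 each). In bulk tissue, fewer cells that express a gene and less RNA of that gene per cell cannot be told apart.

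The log2 fold change of *Msx1* against wt was -0.90 in Rspo2KO (SE 0.36, 95% interval -1.67 to -0.13), with a p of 0.0251 and an adjusted p of 0.338 by edgeR's quasi-likelihood test with Benjamini-Hochberg adjustment over all 17317 genes. In DKO it was also -0.90 (SE 0.36, interval -1.67 to -0.13), with an edgeR adjusted p of 0.0762. In Wnt9bKO it was -0.59 (SE 0.36, interval -1.35 to 0.18), with an edgeR adjusted p of 0.228. None of these passed the adjusted threshold of 0.05, although the fitted level was 53.7% of wt in Rspo2KO and 53.6% in DKO. The spread that entered the test was that of all 11 libraries, and with only the compared groups in the model *Msx1* passed in Rspo2KO (edgeR adjusted p = 0.00752) and DKO (0.00535). Without the libraries labelled Wnt9bKO 2 and DKO 3, *Msx1* fell by 1.19 on the log2 scale in DKO (edgeR adjusted p = 0.000386). That fit gave -0.91 in Rspo2KO (0.0525) and -0.21 in Wnt9bKO (0.349). These p-values are not an independent test, because *Msx1* followed within labels (r = 0.94) the *Rspo2* level by which the 2 libraries were picked. Leaving out only the library labelled Wnt9bKO 1, Wnt9bKO 2 or DKO 3 also took the DKO comparison past the threshold (0.0256, 0.00723 and 0.0397). Without Wnt9bKO 1 the Wnt9bKO comparison passed as well (-1.06, adjusted p = 0.0199). Of 20 alternatives in each comparison with wt, *Msx1* was called in 2 for Rspo2KO, 7 for DKO and 2 for Wnt9bKO. DESeq2 called it in none of these comparisons (adjusted p = 0.41 in Rspo2KO).

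*Msx2*, the lower of the pair, had smaller fitted changes. It was 10.99 and 11.18 CPM in wt, 9.29, 8.44 and 8.28 CPM in Rspo2KO, 15.1, 6.20 and 14.0 CPM in the libraries labelled Wnt9bKO, and 5.76, 8.66 and 12.7 CPM in those labelled DKO. All Rspo2KO libraries lay below both wt libraries, while the Wnt9bKO and DKO libraries lay on both sides of them. The log2 fold change against wt was -0.36 in Rspo2KO (SE 0.33, edgeR adjusted p = 0.708), 0.09 in Wnt9bKO (SE 0.32, 0.864) and -0.29 in DKO (SE 0.33, 0.545). With those 2 libraries left out it fell by 0.63 in DKO (edgeR adjusted p = 0.0309), and the Wnt9bKO value was 0.39 (0.132). The same limit holds here, as *Msx2* also followed *Rspo2* within labels (r = 0.93).

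In the libraries labelled Wnt9bKO and DKO the MSX genes had the largest spread of the 10 members. In wt it was *Id1* (SD of log2 CPM 0.38) and in Rspo2KO *Bmp2* (0.25). Over the libraries labelled Wnt9bKO the highest *Msx1* level was 3.88 times the lowest and the SD of log2 CPM was 1.001, larger than in 98.7% of genes tested, whose median SD was 0.19. For *Msx2* the ratio was 2.43 and the SD 0.70, larger than in 95.6% of genes. *Bmp2* was close to it in these libraries (ratio 2.42, SD 0.68, larger than in 95.1% of genes). *Id1* and *Bmp4* followed, with an SD larger than in 92.3% and 90.2% of genes. In the DKO libraries the SD was 0.44 for *Msx1* and 0.57 for *Msx2*, larger than in 90.1% and 94.8% of genes. In Rspo2KO the SD was 0.05 for *Msx1* and 0.09 for *Msx2*, larger than in 6.21% and 17.2% of genes. This was not particular to the MSX genes. *Bmp4*, *Smad6* and *Bmp7* had a smaller SD still, larger than in 4.39%, 4.82% and 5.36% of genes, and *Id2* was close to *Msx2* (17.1%). The library labelled Wnt9bKO 2 was the lowest of its label for 9 of the 10 members (not *Bmp5*), against 35.0% of all genes tested. The library labelled DKO 3 was the highest of its label for 6 of 10 members, against 36.9% of all genes. *Msx1*, *Msx2*, *Bmp7*, *Id1* and *Id2* showed both, 5 of 10 against 13.1% of genes.

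Placed against the *Rspo2* level of each library, the 11 libraries fell into 6 at 2.86 to 6.59 CPM (3 labelled Rspo2KO, 2 labelled DKO and the library labelled Wnt9bKO 2) and 5 at 14.8 to 22.8 CPM (both wt, 2 labelled Wnt9bKO and the library labelled DKO 3). *Msx1* was 35.1 to 72.1 CPM in the first 6 and 90.6 to 137 CPM in the other 5. *Msx2* was 5.76 to 9.29 CPM in the first 6 and 10.99 to 15.1 CPM in the other 5. For both genes the ranges in CPM did not overlap, whatever the label. Relative to the sum of facial mesenchyme markers described below, both genes did overlap. *Msx1* was 10.04% of that sum in Rspo2KO 2 against 9.85% in the library labelled Wnt9bKO 3. *Msx2* was 1.23% of it in Rspo2KO 1 against 1.11% in wt 1. The part of the mesenchyme share in this split was not tested. The other 8 members overlapped in CPM. *Bmp4*, for example, was 9.54 to 16.7 CPM against 12.9 to 18.8, *Id1* 33.9 to 52.5 CPM against 48.0 to 75.0, and *Id3* 98.8 to 152 CPM against 108 to 168. Of all genes tested, 37 (0.214%, *Rspo2* itself included) were lower in each of the 6 libraries than in each of the 5, and 2 of the 10 members were among them. Because a measured level defined these sets, no test was made between them. Within the first 6 libraries, Pearson's r of log2 CPM with *Rspo2* was 0.82 for *Msx1* and 0.64 for *Msx2*. Neither passed a permutation test with Benjamini-Hochberg adjustment over the 10 members (adjusted p = 0.198 and 0.288).

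**Figure D2:**
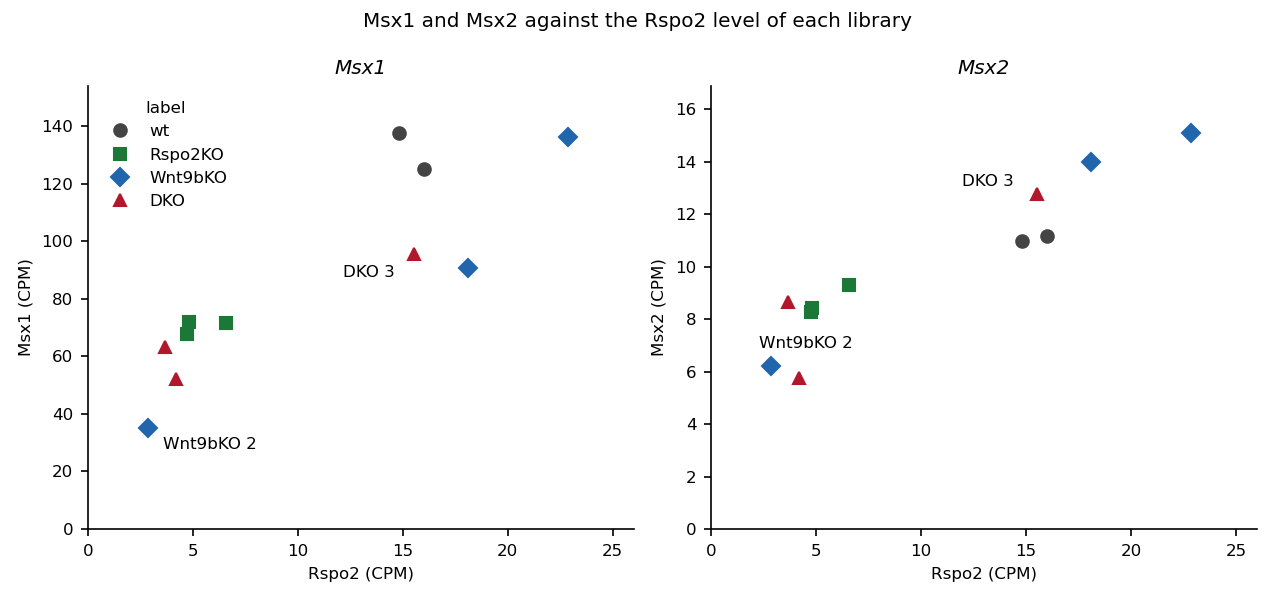
*Msx1* (left) and *Msx2* (right) in CPM against *Rspo2* in CPM, 1 point per library, coloured by genotype label. The 6 libraries with *Rspo2* at 2.86 to 6.59 CPM lie at or below 72.1 CPM of *Msx1* and 9.29 CPM of *Msx2*, including the library labelled Wnt9bKO 2, and the library labelled DKO 3 lies with the 5 at higher *Rspo2*.

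The direct comparison of the double with the single mutants asks what a second lost gene adds. Against Rspo2KO, *Msx1* in DKO had a log2 fold change of 0.00 (SE 0.33, 95% interval -0.70 to 0.70) and *Msx2* 0.06 (SE 0.30, interval -0.57 to 0.70), with edgeR adjusted p of 0.997 and 0.911. Against Wnt9bKO, *Msx1* in DKO had -0.31 (SE 0.33, interval -1.01 to 0.38) and *Msx2* -0.38 (SE 0.29, interval -0.998 to 0.24), with edgeR adjusted p of 0.978 and 0.977. These intervals are wide, and a missed threshold does not show that the levels were alike. Without the libraries labelled Wnt9bKO 2 and DKO 3, *Msx1* fell by 0.98 in DKO against Wnt9bKO (edgeR adjusted p = 0.0455). It was the only member called, in a background of 0.0875% of genes called lower, and *Msx2* had -1.02 (0.0745). That fit sets DKO libraries of low *Rspo2* against Wnt9bKO libraries of high *Rspo2*, sets made by a measured level that both genes followed. Its p-values therefore cannot decide what the second lost gene adds. Against Rspo2KO the values without those 2 libraries were -0.28 for *Msx1* and -0.26 for *Msx2* (adjusted p = 0.239 and 0.357).

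The interaction, which is the DKO change minus the sum of the single-mutant changes on the log2 scale, was 0.58 for *Msx1* (SE 0.49, 95% interval -0.46 to 1.62, edgeR adjusted p = 0.724) and -0.02 for *Msx2* (SE 0.44, interval -0.96 to 0.92, adjusted p = 0.993). After leaving out the libraries labelled Wnt9bKO 2 and DKO 3 it was -0.07 for *Msx1* (adjusted p = 0.951) and -0.65 for *Msx2* (0.555), and *Msx2* was then the 1 member with an unadjusted p under 0.05. With all 11 libraries 0 of the 10 members passed in the interaction by edgeR or DESeq2, and 0 had an unadjusted p under 0.05 by either. The background was 0.0635% of genes called and 9.45% at an unadjusted p under 0.05.

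Among the BMP ligands, which signal between ectoderm and mesenchyme of the face, no gene passed the test in any comparison. *Bmp4*, the ligand best known upstream of *Msx1*, was 15.7 and 12.9 CPM in wt, 12.7, 12.0 and 12.3 CPM in Rspo2KO, 18.8, 9.54 and 17.0 CPM in the libraries labelled Wnt9bKO, and 14.3, 16.7 and 15.1 CPM in those labelled DKO. The Rspo2KO libraries lay just under the lower wt library, and the DKO libraries overlapped wt. Its log2 fold change was -0.21 in Rspo2KO (SE 0.22, 95% interval -0.68 to 0.27), 0.09 in Wnt9bKO (SE 0.22, interval -0.38 to 0.56) and 0.11 in DKO (SE 0.22, interval -0.36 to 0.58), with edgeR adjusted p of 0.752, 0.792 and 0.756.

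*Bmp7*, the ligand with the highest level, was 29.8 and 36.8 CPM in wt and lay between 31.9 and 40.1 CPM in the 9 mutant libraries. Its changes against wt ran from -0.03 in Rspo2KO to 0.16 in DKO, with an SE of 0.12 each and the narrowest intervals of the 10 genes (-0.28 to 0.22 in Rspo2KO and -0.09 to 0.41 in DKO). *Bmp5*, a close relative of *Bmp7*, was 5.98 and 7.31 CPM in wt against 6.29 to 9.48 CPM in the mutants, and the highest value was that of the library labelled Wnt9bKO 2. *Bmp2* was 1.43 and 1.75 CPM in wt, 1.64 to 2.25 in Rspo2KO, 1.43 to 3.46 in Wnt9bKO and 1.18 to 1.41 CPM in DKO. Its change in DKO against Wnt9bKO was -0.76 (SE 0.33, edgeR adjusted p = 0.833), with an unadjusted p under 0.05 as in 5.63% of all genes, and the high Wnt9bKO mean came from 1 library, Wnt9bKO 1.

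*Id3* was the 1 member that passed the adjusted threshold, in both comparisons of a Wnt9b mutant label with wt. It was 168 and 164 CPM in wt, 121, 152 and 141 CPM in Rspo2KO, 154, 98.8 and 108 CPM in the libraries labelled Wnt9bKO, and 111, 107 and 109 CPM in those labelled DKO. Every mutant library lay below both wt libraries, and the share of all genes that did so was not counted. The DKO libraries differed from each other by a factor of 1.04, with an SD of log2 CPM larger than in 3.40% of genes. *Id3* fell by 0.61 on the log2 scale in DKO (SE 0.15, edgeR adjusted p = 0.0101), to 65.7% of wt. It fell by 0.46 in Wnt9bKO (SE 0.15, edgeR adjusted p = 0.0329), to 72.5% of wt, and had -0.26 in Rspo2KO (SE 0.16, adjusted p = 0.528). One of 10 members was called lower in DKO against wt, where 13.1% of all genes were called lower and 14.3% higher, and 1 of 10 in Wnt9bKO, where 16.0% were called lower and 16.8% higher. These shares are near the background.

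The DKO call of *Id3* held without the libraries labelled Wnt9bKO 2 and DKO 3 (-0.61, edgeR adjusted p = 0.0131) and was lost without wt 1 (0.0599) or wt 2 (0.0516). The Wnt9bKO call was lost without those 2 libraries (-0.34, adjusted p = 0.114) and without any 1 of wt 1 (0.127), wt 2 (0.110), Wnt9bKO 2 (0.126) and Wnt9bKO 3 (0.124). It was also lost with only the compared groups in the model (-0.47, edgeR adjusted p = 0.0739) and with an offset for GC content and length (-0.29, 0.0869). In DKO against Rspo2KO, *Id3* had -0.34 (SE 0.14, edgeR adjusted p = 0.106). It was the 1 member with an unadjusted p under 0.05 there, where 31.4% of all genes had one. No member was called in that comparison, in which 9.15% of genes were called higher and 9.07% lower.

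*Id1* and *Id2* were below wt in the Rspo2KO libraries by less than the test could call. *Id1* was 69.8 and 48.0 CPM in wt, a wide spread, 36.8, 40.7 and 44.3 CPM in Rspo2KO, 75.0, 33.9 and 48.0 CPM in the libraries labelled Wnt9bKO, and 46.7, 52.5 and 61.5 CPM in those labelled DKO. Only the Rspo2KO libraries did not overlap wt, with a log2 fold change of -0.53 (SE 0.25, edgeR adjusted p = 0.416). *Id2* was 68.9 and 71.1 CPM in wt, 60.4 to 67.3 in Rspo2KO, 48.2 to 63.7 in Wnt9bKO and 54.5 to 73.6 CPM in DKO. Its largest change was -0.28 in Wnt9bKO (SE 0.14, edgeR adjusted p = 0.133), where the Wnt9bKO libraries lay below wt. The share of all genes whose Wnt9bKO libraries did so was not counted.

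*Smad6*, a feedback inhibitor of the pathway, was 22.2 and 22.8 CPM in wt, 19.2, 18.3 and 19.3 CPM in Rspo2KO, 31.5, 18.5 and 20.8 CPM in the libraries labelled Wnt9bKO, and 21.7, 24.3 and 22.0 CPM in those labelled DKO. The Rspo2KO libraries lay close together below wt, at a log2 fold change of -0.25 (SE 0.18, edgeR adjusted p = 0.613). The change in DKO was 0.01 (SE 0.18, 95% interval -0.38 to 0.40).

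**Figure D3:**
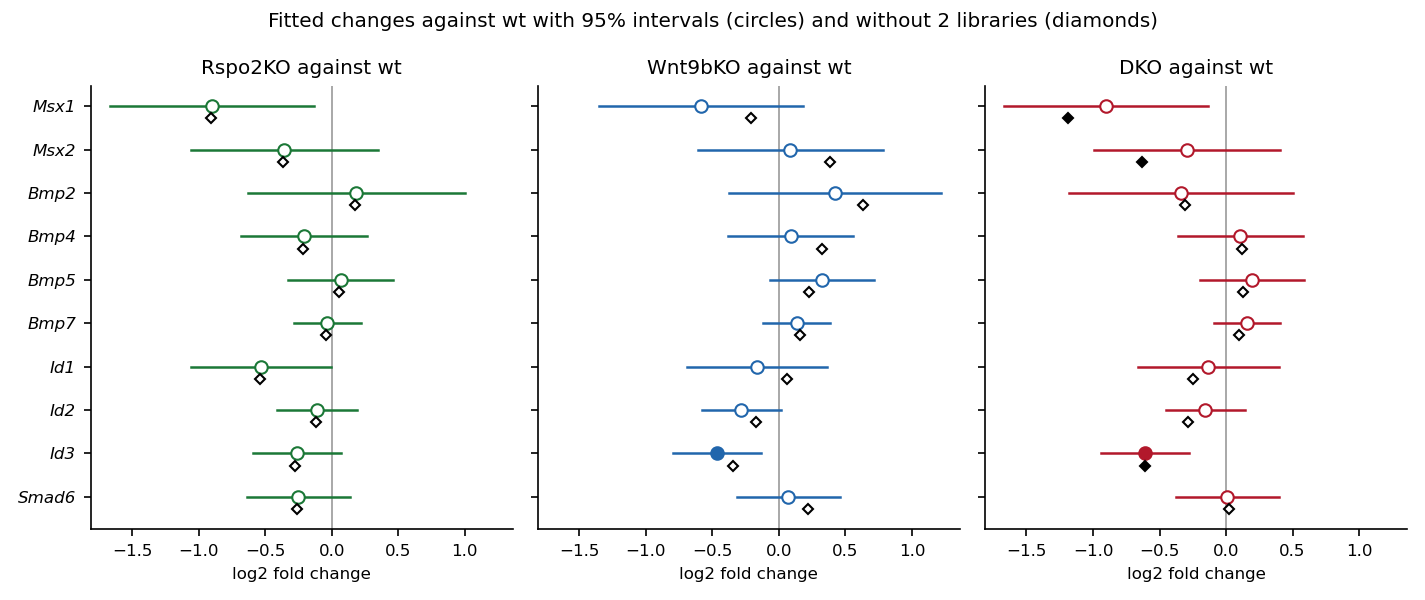
Log2 fold change against wt for each gene and mutant label, with circles and 95% intervals from all 11 libraries and diamonds from the fit without the libraries labelled Wnt9bKO 2 and DKO 3, filled where the adjusted p was below 0.05. Filled circles stand at *Id3* in Wnt9bKO (-0.46) and DKO (-0.61), and filled diamonds at *Msx1* (-1.19), *Msx2* (-0.63) and *Id3* (-0.61) in DKO.

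Across the 10 genes, Rspo2KO was the label with the most uniform shift. In 7 of 10 (*Msx1*, *Msx2*, *Bmp4*, *Id1*, *Id2*, *Id3* and *Smad6*) each Rspo2KO library lay below both wt libraries, against 15.7% of all genes tested. The summed level of 6 facial mesenchyme markers was also lower in these libraries (718 to 798 CPM against 936 and 991 CPM in wt), although *Alx1* and *Pdgfra* among them overlapped wt. Relative to that sum 1 of the 7, *Msx1*, remained below both wt libraries in each Rspo2KO library. The share of all genes that did so on this scale was not counted. The median log2 fold change of the 10 genes was -0.23 in Rspo2KO, against 0.00 over all genes, 0.08 in Wnt9bKO (0.01 over all genes) and -0.14 in DKO (0.01). These comparisons share the same 2 wt libraries. By edgeR with adjustment 0 members were called in Rspo2KO, where 0.0346% of genes were, and 2 (*Msx1* and *Id1*) had an unadjusted p under 0.05, where 11.9% of genes had one. DESeq2 also called 0, with 1 (*Id1*) at an unadjusted p under 0.05. By the study's rule of an unadjusted p under 0.05 and over 1.5-fold, applied to the edgeR fit, 1 member passed in Rspo2KO (*Msx1*, background 4.68% of genes), 2 in DKO (*Msx1* and *Id3*, background 20.4%) and 0 in Wnt9bKO (background 24.8%). By the same rule DESeq2 gave 0 in Rspo2KO and 1 in DKO (*Id3*). In DKO against Wnt9bKO 0 members were called with adjustment by either tool, in a background of 0.121%, and 1 by edgeR (*Bmp2*) and 0 by DESeq2 had an unadjusted p under 0.05.

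Without the libraries labelled Wnt9bKO 2 and DKO 3, 3 of 10 members were called in DKO against wt, all lower (*Msx1*, *Msx2* and *Id3*), where 12.5% of genes were called lower. None was called in Wnt9bKO or Rspo2KO against wt with that fit, in which 1 (*Id3*) and 2 (*Msx1* and *Id1*) had an unadjusted p under 0.05. The DKO calls of *Msx1* and *Msx2* are not an independent test, since both followed the *Rspo2* level by which the libraries were picked.

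The facial mesenchyme, in which the MSX genes are expressed, was followed by 6 markers (*Prrx1*, *Prrx2*, *Twist1*, *Pdgfra*, *Alx1* and *Alx4*), all counted in every library. Their summed level was 991 and 936 CPM in wt, 718 to 798 CPM in Rspo2KO, 670.0 to 1204 CPM in Wnt9bKO and 802 to 878 CPM in DKO. The markers did not move as 1. *Prrx1*, the largest part of the sum, was 233 to 272 CPM in Rspo2KO against 378 and 344 in wt. *Prrx2*, *Twist1* and *Alx4* were also below wt in each Rspo2KO library. *Alx1* (57.7 to 58.6 CPM against 48.6 and 58.7) and *Pdgfra* (171 to 212 against 216 and 198) overlapped wt. In DKO only *Prrx1* and *Prrx2* lay below wt in each library. The lowest sum was in the library labelled Wnt9bKO 2 and the highest in Wnt9bKO 1, the same order as *Msx1* in that label. Set against this sum, *Msx1* was 13.9% and 13.4% of it in wt, 8.48% to 10.04% in Rspo2KO, 5.24% to 11.3% in Wnt9bKO and 5.93% to 10.9% in DKO. On this scale all 9 mutant libraries lay below both wt libraries, against 8 of 9 in CPM. The library that differed, labelled Wnt9bKO 1, was in the wt range in CPM (136 against 125 and 137) and had the highest marker sum. *Msx2* was 1.11% and 1.19% of the sum in wt and 1.04% to 1.23% in Rspo2KO, so its Rspo2KO libraries overlapped wt on this scale. *Bmp4*, *Id1*, *Id3* and *Smad6* likewise overlapped wt in Rspo2KO once set against the sum. *Id2* turned higher, at 8.002% to 9.37% of the sum in Rspo2KO against 6.95% and 7.60% in wt. *Bmp2*, *Bmp5* and *Bmp7* also stood above both wt libraries in each Rspo2KO library. A gene of unchanged CPM stands higher on this scale where the sum is lower, as it was in Rspo2KO. It stands lower where the sum is higher, as in the library labelled Wnt9bKO 1. The share of all genes that stood above or below wt on this scale was not counted. *Id3* was 16.9% and 17.5% of the sum in wt, 11.7% to 14.7% in Wnt9bKO and 12.5% to 13.3% in DKO, and these 6 libraries lay below wt on this scale too. The part of the mesenchyme share in the member values was not tested.

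**Figure D4:**
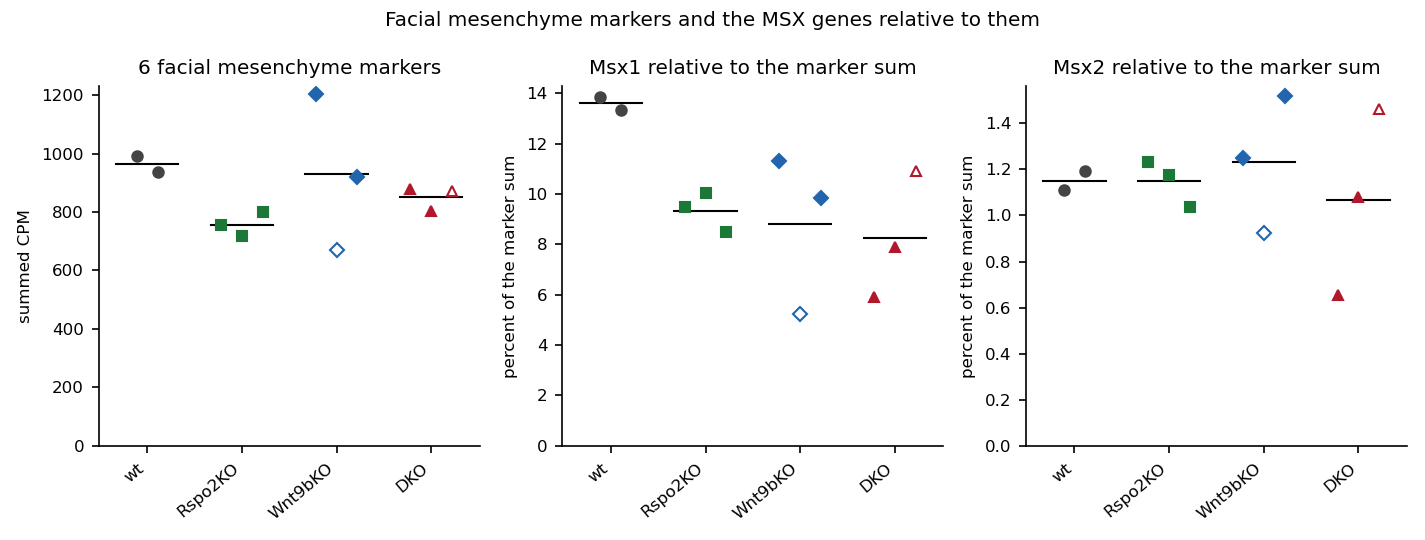
Summed CPM of 6 facial mesenchyme markers (left), and *Msx1* (middle) and *Msx2* (right) as a percentage of that sum, for each library by label, with a line at the label's mean and open symbols for the libraries labelled Wnt9bKO 2 and DKO 3. *Msx1* lies below both wt libraries (13.4% and 13.9%) in all 9 mutant libraries, while *Msx2* overlaps wt in each mutant label. The library labelled Wnt9bKO 1, which was in the wt range of *Msx1* in CPM, has the highest marker sum.

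Other tissues of the explant moved with some libraries. Surface epithelium markers, 7 genes with keratins and *Epcam*, summed to 187 to 230 CPM in all libraries. This sum hides differences in single markers. *Krt14*, 1 of the 7, was 8.93 and 9.24 CPM in wt and 5.84 to 6.56 in Rspo2KO. It was 13.2, 0.775 and 5.40 CPM in the libraries labelled Wnt9bKO and 2.70 to 5.52 CPM in DKO. The other markers of this list are given only in the sum. Mandibular arch markers, 6 genes with *Dlx5* and *Hand2*, summed to 48.9 and 45.4 CPM in wt, 32.0 to 44.8 in Rspo2KO, 39.6 to 84.4 in Wnt9bKO and 43.0 to 51.8 CPM in DKO, again with Wnt9bKO 2 lowest and Wnt9bKO 1 highest of their label. Forebrain and eye markers were 68.2 and 58.9 CPM in wt against 71.7 to 90.5 in Rspo2KO, 92.0 to 171 in Wnt9bKO and 92.9 to 120 CPM in DKO, so every mutant library lay above wt, with the highest value in the library labelled Wnt9bKO 2. Neuron markers were 504 and 544 CPM in wt against 598 to 663 in Rspo2KO, 307 to 450 in Wnt9bKO and 544 to 584 CPM in DKO, lowest in that same library. Heart and muscle markers stood at 60.6 CPM in wt 1 against 3.3 to 10.4 CPM in all others, and erythroid markers at 3905 to 5711 CPM in wt and Rspo2KO against 1717 to 2816 CPM in Wnt9bKO and DKO. Endothelial markers were 159 and 146 CPM in wt and higher, at 164 to 189 CPM, in all 9 mutant libraries. The part of these tissues in the member values was not tested.

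The rest of the pathway was followed through 50 further genes, of which 42 were tested. In Wnt9bKO against wt, 9 were called higher and 5 lower, and in DKO against wt 8 higher and 4 lower. The called shares, 14 and 12 of 42, stand beside totals of 16.8% higher and 16.0% lower, and 14.3% higher and 13.1% lower, over all genes. They are near this background, so the calls are no trait of the pathway. The median log2 fold change of the 42 was 0.15 in Wnt9bKO, -0.01 in Rspo2KO and 0.15 in DKO. In Rspo2KO against wt 0 were called by edgeR and 1 by DESeq2, and in DKO against Wnt9bKO and the interaction edgeR called 0. In the fit without the libraries labelled Wnt9bKO 2 and DKO 3, 10 were higher and 5 lower in Wnt9bKO, and 5 higher and 5 lower in DKO. Without wt 1 the counts called were 6 in Wnt9bKO and 5 in DKO, without wt 2 they were 9 and 5, and without DKO 1 that of DKO was 7.

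Among receptors and co-receptors, 3 of 10 rose and 1 fell in both Wnt9bKO and DKO against wt. Over all genes 16.8% were called higher and 16.0% lower in Wnt9bKO, and 14.3% and 13.1% in DKO. The counts by role, here and below, rest on few genes and are to be read beside these shares. *Acvr2b*, a type II receptor gene, rose by 0.63 in Wnt9bKO (SE 0.13, edgeR adjusted p = 0.00225), from 26.6 and 29.7 CPM in wt to 40.7 to 46.6 CPM. *Eng*, encoding the co-receptor endoglin of endothelial cells, rose by 0.96 in Wnt9bKO and 1.01 in DKO (edgeR adjusted p = 0.00467 and 0.00415), from 5.27 and 6.71 CPM in wt to 11.1 to 12.6 CPM in the 6 libraries. In Rspo2KO *Eng* was 14.0, 8.14 and 8.40 CPM, also above wt (log2 fold change 0.74, edgeR adjusted p = 0.227), and the endothelial marker sum was above wt in all 9 mutant libraries. Among the SMAD and SMURF genes 2 of 7 rose and 0 fell. *Smurf1*, a ubiquitin ligase that targets BMP receptor SMADs, rose by 0.71 in Wnt9bKO and 0.60 in DKO (edgeR adjusted p = 0.00107 and 0.00397). There was no overlap between wt (27.2 and 28.9 CPM) and these 6 libraries (40.4 to 46.5 CPM). The share of all genes without such overlap was not counted.

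Among 16 tested antagonists and modulators, 3 rose and 2 fell in Wnt9bKO, and 2 rose and 2 fell in DKO. *Crim1*, which encodes a BMP-binding membrane protein, rose by 0.86 in both Wnt9bKO and DKO (edgeR adjusted p = 0.000871 and 0.00113). *Twsg1*, a modulator that binds BMPs together with chordin, fell by 0.40 in Wnt9bKO and 0.41 in DKO (SE 0.09 each, edgeR adjusted p = 0.00487 and 0.00498), in DKO from 154 and 162 CPM in wt to 116 to 121 CPM. All 6 Wnt9bKO and DKO libraries of *Twsg1*, 116 to 123 CPM, lay below all 5 wt and Rspo2KO libraries, 137 to 162 CPM. The share of all genes that separated these libraries was not counted, and the small nuclear RNA and erythroid marker sums split them in the same way.

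The fourth ID gene moved the other way from *Id3*. *Id4* was 40.02 and 39.51 CPM in wt, 33.1 to 41.3 CPM in Rspo2KO, 56.1, 88.5 and 64.0 CPM in the libraries labelled Wnt9bKO, and 72.4, 94.9 and 59.4 CPM in those labelled DKO. It rose by 0.93 in DKO against wt (SE 0.20, edgeR adjusted p = 0.00421) and by 1.06 in DKO against Rspo2KO (SE 0.18, adjusted p = 0.00108). In the latter comparison 6 of 42 were called higher and 2 lower, 8 in all, where 9.15% of all genes were called higher and 9.07% lower. The 8 became 5 without DKO 1 or DKO 2 and 4 without Rspo2KO 2 or Rspo2KO 3. *Smad7*, an inhibitory SMAD like *Smad6*, rose by 0.90 there (edgeR adjusted p = 0.00267), *Nog*, the BMP antagonist noggin, by 0.81 (0.00721), *Smurf1* by 0.52 (0.00556) and *Crim1* by 0.50 (0.0158). *Msx3*, the MSX gene of the dorsal neural tube, was named after its values were seen. It had 22 and 16 counts in wt, 1, 1 and 0 counts in the libraries labelled Wnt9bKO, and 1, 10 and 37 counts in those labelled DKO, which puts Wnt9bKO at least 8.15-fold lower than wt at a floor of 3 counts per library.

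**Figure D5:**
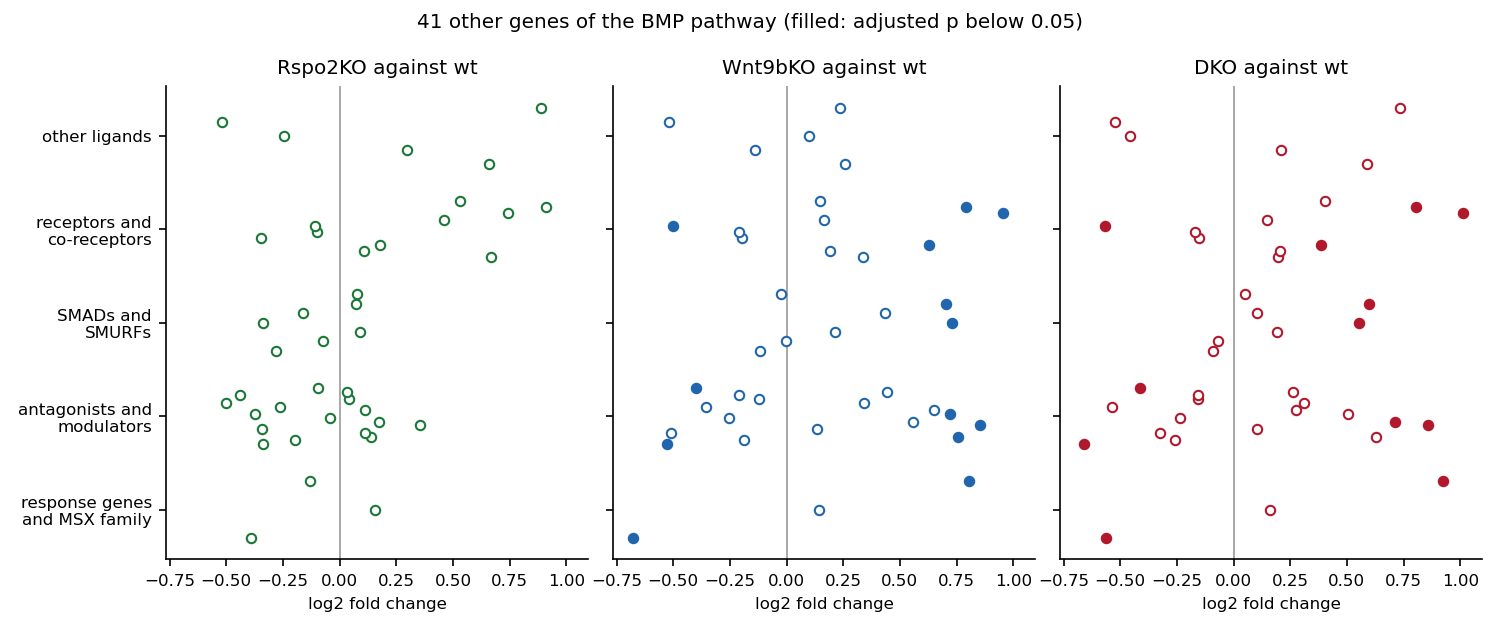
Log2 fold change against wt of 41 further BMP pathway genes by role, 1 circle per gene, filled where the adjusted p was below 0.05 (*Msx3*, at 0 or 1 counts in the Wnt9bKO libraries, is not drawn). No circle is filled in Rspo2KO, and the filled circles of Wnt9bKO and DKO lie on both sides of 0.

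The genes whose pattern was most like that of the MSX genes were ranked by Pearson's r of log2 CPM over the 11 libraries after the mean of each label was removed, among 10878 protein-coding genes of at least 5 CPM. For *Msx1* they were *Rfxank* (r = 0.99), *Krt14* (0.98), *Mllt11* (0.98), *Dkk1* (0.98) and *Bdnf* (0.96). *Msx2* followed at rank 19 (0.94) and *Rspo2* at rank 18 (0.94). For *Msx2* they were *Zfand2b* (0.96), *Dkk1* (0.94), *Rfxank* (0.94), *Msx1* (0.94) and *Srp9* (0.93), with *Rspo2* at rank 6 (0.93). *Dkk1*, which encodes a secreted WNT antagonist, was 11.3 and 9.36 CPM in wt, 5.24 to 6.29 CPM in Rspo2KO, 7.67, 2.86 and 6.36 CPM in the libraries labelled Wnt9bKO, and 3.17, 3.67 and 5.16 CPM in those labelled DKO. Among the members, *Bmp4*, *Id1* and *Id2* stood at ranks 72, 73 and 74 with *Msx1* (0.88, 0.87 and 0.87), *Id3* at rank 635 (0.68), and *Bmp5* at rank 8724 (-0.42). The measure is a description over libraries that share depth and tissue makeup, and the library labelled Wnt9bKO 2 stood farthest from its label's mean for both MSX genes.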

How the data were processed

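Total RNA of facial process explants at embryonic day 10.5 was sequenced in 11 libraries (2 wt, 3 each of Rspo2KO, Wnt9bKO and DKO by their labels, against 3 per genotype in the study's methods). The authors trimmed single-end reads of 50 bp with Cutadapt, dropped those under 30 bp and used STAR for mapping to GRCm38 and HTSeq-Count for counting. The authors deposited raw counts, whole numbers of reads per Ensembl gene, without normalization. Versions are not given in the sources used here.

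The 10 genes, the list of 50 BMP pathway genes and the marker lists were chosen with earlier results of these data known, and 2 listed genes are not reported here. Symbols were matched through GENCODE M21. Counts were tested with edgeR 4.0.16 (R 4.3.3) after filterByExpr on label and TMM scaling, by a quasi-likelihood fit with 1 mean per label over all 11 libraries, two-sided, with Benjamini-Hochberg adjustment over 17317 genes and a threshold of 0.05. The spread was shared over all labels because wt has 2 libraries. DESeq2 1.42.0, the study's tool, was an alternative, and log2 CPM used a prior count of 2. The named genes are the 10 members, *Rspo2* and *Wnt9b*, up to 5 pathway genes per comparison with the smallest p among those called, and the 5 genes most like *Msx1* and *Msx2* each. Alternatives were RLE and upper-quartile factors, no low-count filter, only the groups compared, a block for the replicate number, an offset by loess (span 0.3) on GC content and length with and without that block, leaving out the libraries labelled Wnt9bKO 2 and DKO 3, and leaving out each of the 11 libraries. For the pathway list they were added after the data were seen. The fit was tested on simulated data. In situ hybridization, qRT-PCR and explant cultures have no counts here and were not used.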

Additional observations from a re-analysis of the deposited data

How the results depend on the processing

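Limits are few libraries (2 in wt), low *Bmp2* counts, and the 2 libraries whose *Rspo2* level goes against the label. RLE and upper-quartile factors and DESeq2 moved no count of members called. In Wnt9bKO, Rspo2KO, DKO and DKO against Rspo2KO, the counts of 1, 0, 1 and 0 members called became 2 each without the low-count filter, and 0, 1, 2 and 2 with only the groups compared. The GC and length offset gave 0 in Wnt9bKO, and with the replicate block 2 in DKO and 1 in Wnt9bKO, *Id2* (adjusted p = 0.0499) in place of *Id3* (-0.29, 0.104). Without the libraries labelled Wnt9bKO 2 and DKO 3 the counts were 0 in Wnt9bKO, 3 in DKO and 1 in DKO against Wnt9bKO. Leaving out 1 library gave 0 to 2 in Wnt9bKO, 0 to 2 in DKO and 0 to 1 in DKO against Rspo2KO. A library left alone in wt was assumed to vary like the others. For the interaction, a fit of only the groups compared is the main fit. The causes of these changes were not tested, beyond fewer libraries.

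The labels do not say whether replicate numbers pair the samples, and the main fit used no pairing. Deviations from the label means correlated between -0.11 and 0.24 over 15 same-numbered pairs, with 3 over 0.1. Over 30 pairs with other numbers they ran from -0.19 to 0.105, with 1 over 0.1. Between mutant labels every same-numbered pair was positive (0.041 to 0.24), while same-numbered pairs with wt ran from -0.105 to 0.025. A pairing is therefore not excluded. With the replicate block alone 1 member each was called in Wnt9bKO and DKO (*Id3*), and *Msx2* became -0.088 in Wnt9bKO and 0.12 in the interaction. The offset with the block gave -0.074 and 0.12 for these and -0.010 for *Bmp5* in Rspo2KO.

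Other sign changes follow. *Msx1* in DKO against Rspo2KO, near 0, became 0.000680 with DESeq2, 0.000175 with RLE and 0.00816 with upper-quartile factors, 0.00438 without the filter, 0.020 with only the groups compared, 0.046 with the offset and 0.00872 with offset and block. With these 2 libraries left out, *Id1* in Wnt9bKO became 0.064, *Msx2* in DKO against Rspo2KO -0.26 (from 0.06) and the *Msx1* interaction -0.068 (from 0.58).

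Leaving out 1 library, log2 fold changes that crossed 0 ranged in Wnt9bKO from -0.14 to 0.42 (*Msx2*), -0.13 to 0.66 (*Bmp2*), -0.10 to 0.36 (*Bmp4*), -0.011 to 0.29 (*Bmp7*), -0.52 to 0.12 (*Id1*) and -0.19 to 0.25 (*Smad6*). In Rspo2KO they ranged from -0.057 to 0.23 (*Bmp5*) and -0.16 to 0.13 (*Bmp7*), and in DKO from -0.038 to 0.25 (*Bmp4*), -0.39 to 0.15 (*Id1*) and -0.042 to 0.042 (*Smad6*). *Msx1* ranged from -0.69 to 0.16 in DKO against Wnt9bKO and from -0.28 to 0.17 against Rspo2KO, *Msx2* from -0.26 to 0.31 against Rspo2KO and from -0.34 to 0.22 in the interaction. *Msx1* stayed below wt in all alternatives of all 3 comparisons with wt, as did *Id2* and *Id3*. For *Id2* the log2 fold changes ran from -0.37 to -0.14 in Wnt9bKO, -0.21 to -0.06 in Rspo2KO and -0.29 to -0.06 in DKO.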
